A study of Mus musculus with 90 samples.

Results

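Lungs of Cyp2f2 knockout mice that breathed 120 ppm styrene were compared with lungs of knockout mice that breathed air, with the exposures of 1 and 4 weeks averaged. The members were chosen by the sample labels alone: the 10 arrays of knockout mice at 120 ppm and the 10 of knockout mice at 0 ppm, 20 of the 90 arrays in the series. Cyp2f2 is the cytochrome P450 that oxidises styrene in the club cells of the mouse airway, so the comparison asks which gene responses to the vapour are seen where that enzyme is deleted.

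All animals were adult male C57BL/6 mice from 1 supplier, with 5 labelled biological replicates and 1 array each in every group. The knockout (KO) is given in the labels as CYP2F2(-/-). The transgenic strain (TG) has the same deletion and carries human genes that the labels write as 2F1, SA13 and 2B6, and the remaining strain is wild type (WT). Styrene was inhaled at 0 ppm (air), 40 ppm or 120 ppm in single wire-mesh cages, with 6 h of exposure daily and 5 exposure days a week over 1 or 4 weeks. Lungs came from animals killed the next morning, and the room had a fixed light-dark cycle. The sources used here do not give the hour at which each animal was killed, its age in weeks, the cell types in which the human genes are active, or whether the strains were littermates. The tissue is whole lung, so fewer cells of a type and less RNA per cell cannot be told apart in any value below.

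The circadian clock is a loop of transcription factors that runs in nearly every cell of the body, including those of the lung. Arntl (BMAL1) pairs with Clock or its close relative Npas2 and switches on genes that carry an E-box, among them the Per and Cry genes, whose proteins then block the pair. A second arm holds the Nr1d genes (REV-ERB), which repress Arntl, Npas2 and Nfil3 through ROR elements. A further arm holds the activators Dbp, Tef and Hlf, which compete with the repressor Nfil3 for the D-box. The levels of all these genes swing over the day, with Arntl and Npas2 peaking at about the opposite time to Dbp and Per3.

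Cyp2f2 itself had a log2 expression value of 11.9 ± 0.13 in KO lungs and 13.1 ± 0.21 in WT lungs at 120 ppm (SD, n = 10 each), a difference of -1.14, or 2.20-fold lower, with a two-sided permutation p of 1e-05, the smallest that 100000 resamples can give. The 30 KO arrays reached at most 12.3 and the 30 WT arrays at least 12.7, so the strains did not overlap. The value in KO lungs was still high, and the sources used here do not say where the probe set lies relative to the deleted sequence. Within KO lungs Cyp2f2 differed by 0.08 between 120 and 0 ppm (adjusted p = 0.999, limma). Scgb1a1 and Scgb3a2, secretory proteins that mark club cells, averaged 13.8 ± 0.06 and 13.3 ± 0.09 in KO lungs at 120 ppm, against 13.8 ± 0.07 and 13.3 ± 0.05 in KO lungs at 0 ppm (SD, n = 10 each). These 2 markers lie near the highest value of the table, 14.01, where a difference between lungs could be compressed. Array medians lay between 4.79 and 4.84 in the exposed group and between 4.72 and 4.84 in the controls, no 2 arrays were identical, and 1 control (0 ppm, 1 week, animal 3) had a limma array weight below 0.25.

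In KO lungs 13 of 17097 genes differed between 120 and 0 ppm at a Benjamini-Hochberg adjusted p under 0.05 (limma), which is 0.076% of the genes tested. The 8 that rose (0.0468%) were Dbp, Nr1d2, Per3, Hlf, Tspan4, Tef, Pfkfb3 and Rsad1, and the 5 that fell (0.0292%) were Npas2, Arntl, Spon2, Nfil3 and Spaar. Of these, 8 are among the 20 measured genes of the circadian clock list, 5 higher and 3 lower. Clock genes vary with the hour, and since the hour of killing is not known for either group, a difference in it cannot be told apart from the dose in their changes. The median change of that list was 0.29, against -0.0024 for all genes tested, on the log2 scale. At an unadjusted p under 0.05 there were 812 genes (4.75%), 334 higher and 478 lower. Among the 13 genes, 11 changed by over 1.5-fold and 4 by over 2-fold (Dbp, Npas2, Arntl and Spon2). With each animal left out in turn, the count lay between 6 and 14, and it fell most without animals 1 and 2 of the controls at 4 weeks (7 and 6 genes) and animal 2 of the exposed group at 1 week (8 genes). Dbp, Tef, Npas2 and Arntl passed in all 29 alternative settings.

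The promoters of the genes that changed are shown because the clock's arms are defined by short DNA motifs. The 250 bases upstream of each start site were read from RefSeq (build GRCm38.p6) and searched on both strands for the E-box CACGTG, which reads the same on both strands, for the D-box in the forms TTATGTAA and TTACGTAA, and for AGGTCA, the core that ROR elements share with other nuclear receptor sites. In the genes searched, no letter belonged to more than 1 match. Promoters were found for 12 of the 13 genes (not Spon2). Among the 8 genes that rose, 3 had an E-box, 1 a D-box and 2 an AGGTCA in at least 1 window, and among the 4 matched genes that fell the counts were 0, 0 and 1. Over all 27025 genes with a promoter in the table, 6.86% had an E-box, 1.1% a D-box and 15.8% an AGGTCA. Dbp, Hlf, Npas2, Arntl and Spaar had none of these motifs. The AGGTCA of Nr1d2 and Rsad1, which rose, starts 77 and 28 bases before the start site and is not printed. A stretch of 100 bases around each match is printed below for Per3, Tef, Tspan4, Pfkfb3 and Nfil3, 5′ to 3′ in the direction of the gene, chosen because it holds a match, which is in capitals. Per3 (chr4:151044791-151044890, minus strand) has 2 D-boxes, starting 205 and 158 bases before the start site. Tef (chr15:81802493-81802592, plus strand) has an E-box 127 bases before it, Tspan4 (chr7:141476270-141476369, plus strand, second start site) 51 bases and Pfkfb3 (chr2:11502101-11502200, minus strand, second start site) 53 bases before it. Nfil3 (chr13:52981040-52981139, minus strand) has the AGGTCA core on the strand opposite to the gene. The printed strand therefore reads TGACCT, starting 12 bases before the start site.
Per3: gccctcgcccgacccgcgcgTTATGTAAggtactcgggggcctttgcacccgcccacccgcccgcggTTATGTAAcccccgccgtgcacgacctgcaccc
Tef: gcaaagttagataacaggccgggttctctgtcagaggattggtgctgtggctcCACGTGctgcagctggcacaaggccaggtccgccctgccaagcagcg
Tspan4: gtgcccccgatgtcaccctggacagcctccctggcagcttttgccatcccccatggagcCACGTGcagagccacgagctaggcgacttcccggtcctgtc
Pfkfb3: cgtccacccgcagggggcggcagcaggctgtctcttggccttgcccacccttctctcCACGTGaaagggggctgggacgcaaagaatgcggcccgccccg
Nfil3: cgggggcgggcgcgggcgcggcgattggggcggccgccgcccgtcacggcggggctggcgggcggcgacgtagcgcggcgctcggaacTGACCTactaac
A match describes letters in these windows and is not a measured binding site.

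Npas2 and Arntl of the activator arm fell in exposed KO lungs. Npas2, the partner of Arntl, had log2 values of 5.13, 4.42, 5.30, 4.81 and 4.19 at 1 week and 4.34, 4.67, 3.89, 4.82 and 3.60 at 4 weeks in KO lungs at 120 ppm, against 6.38, 5.97, 6.27, 5.48 and 5.93 at 1 week and 6.36, 6.28, 5.50, 6.01 and 5.80 at 4 weeks in KO lungs at 0 ppm. Every exposed lung lay below every control lung. The change was -1.48 (SE 0.20), 2.79-fold lower, with an adjusted p of 3.35e-06 (limma).

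Arntl, the core activator, had values of 6.51, 5.79, 6.88, 6.61 and 5.88 at 1 week and 6.57, 6.35, 5.55, 6.63 and 5.55 at 4 weeks in KO lungs at 120 ppm, against 7.61, 7.55, 7.14, 6.98 and 7.72 at 1 week and 7.77, 7.78, 7.43, 7.40 and 7.53 at 4 weeks in KO lungs at 0 ppm. Again no exposed lung reached a control lung. The change was -1.26 (SE 0.20), 2.40-fold lower, with an adjusted p of 0.000158 (limma). Clock, the other partner of Arntl, differed by -0.13 with a 95% interval of -0.41 to 0.14. Groups of 10 and 10 that did not overlap were found for 3 of 17097 genes (0.0175%), all lower at 120 ppm. They were Npas2, Arntl and P2rx5, a subunit of an ATP-gated ion channel, which is named after its values were seen: its change was -0.32, with an adjusted p of 0.368 in the fit of all arrays.

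The 3 D-box activators rose and their competitor Nfil3 fell. Dbp had values of 8.06, 8.50, 6.94, 7.73 and 8.59 at 1 week and 7.87, 7.91, 8.51, 8.13 and 8.59 at 4 weeks in KO lungs at 120 ppm, against 5.73, 5.86, 6.79, 7.17 and 6.03 at 1 week and 4.27, 4.83, 6.75, 6.72 and 6.26 at 4 weeks in KO lungs at 0 ppm. Of the 10 exposed lungs, 9 lay above every control. At 2.04 (SE 0.30), 4.12-fold higher, with an adjusted p of 2.2e-05 (limma), Dbp had the largest change among the 13 genes.

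Tef lay between 9.83 and 10.59 (median 10.14) in KO lungs at 120 ppm and between 9.21 and 9.95 (median 9.55) in KO lungs at 0 ppm. Hlf lay between 6.49 and 7.40 (median 6.89) in KO lungs at 120 ppm and between 5.64 and 6.69 (median 6.15) in KO lungs at 0 ppm. For each of these relatives of Dbp, 8 of 10 exposed lungs exceeded all controls. The changes were 0.61 (SE 0.11, adjusted p = 0.00129, limma) for Tef and 0.78 (SE 0.17, adjusted p = 0.042, limma) for Hlf. Both probe sets of each gene moved the same way. Hlf passed in only 17 of the 29 alternative settings, with adjusted p-values between 0.00216 and 0.132.

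Nfil3 lay between 5.56 and 6.48 (median 6.27) in KO lungs at 120 ppm and between 6.33 and 7.70 (median 7.08) in KO lungs at 0 ppm. Of the exposed lungs, 7 of 10 were below all controls. The change was -0.91 (SE 0.19), 1.88-fold lower, with an adjusted p of 0.0102 (limma).

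**Figure D1:**
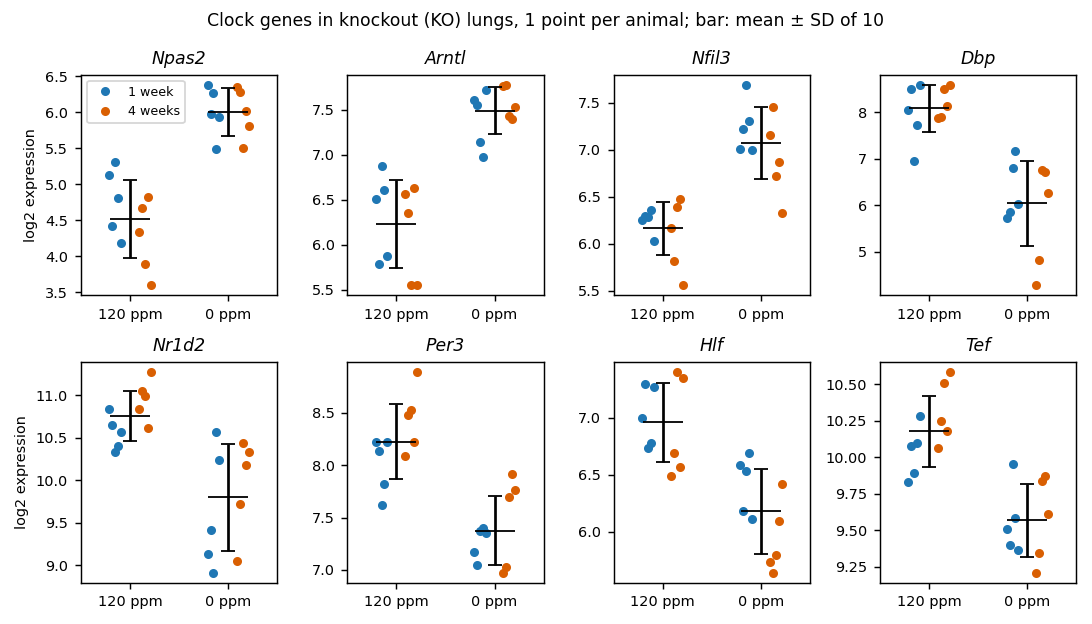
Log2 expression (y axis) of the 8 clock genes that passed, in KO lungs at 120 ppm (left) and 0 ppm (right), with 1 point per animal coloured by weeks of exposure and a bar for the mean ± SD of 10 animals. Npas2, Arntl and Nfil3 were lower and the other genes higher at 120 ppm, with no overlap between groups for Npas2 and Arntl.

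Among the repressors, Per3 and Nr1d2 passed. Per3, a period protein, lay between 7.62 and 8.89 (median 8.22) in KO lungs at 120 ppm and between 6.97 and 7.91 (median 7.36) in KO lungs at 0 ppm, and 8 of 10 exposed lungs exceeded all controls. Its change was 0.85 (SE 0.15), 1.80-fold higher, with an adjusted p of 0.000728 (limma), and all 5 of its probe sets were positive. Nr1d2, which encodes REV-ERB beta, lay between 10.33 and 11.27 (median 10.74) in KO lungs at 120 ppm and between 8.91 and 10.57 (median 9.95) in KO lungs at 0 ppm.

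The controls spread more widely than the exposed lungs for Nr1d2, with SDs of 0.30 at 120 ppm and 0.63 at 0 ppm. Its change was 0.96 (SE 0.21, adjusted p = 0.0398, limma), and it passed in 17 of the 29 alternatives. Other repressors did not pass. Cry1, which blocks the activator pair, differed by -0.42 (adjusted p = 0.147), and Bhlhe41, an E-box repressor, by 0.39 (adjusted p = 0.176). Ciart differed by 0.43 (adjusted p = 0.668), Per2 by 0.42 (adjusted p = 0.942) and Per1 by 0.31 (adjusted p = 0.999), all by limma. Wee1, a clock-controlled kinase that holds cells before mitosis, differed by 0.36 (adjusted p = 0.28). Nr1d1, the close relative of Nr1d2, was not analysed here.

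Outside the clock list, 5 genes passed. Tspan4, a tetraspanin of the cell membrane, lay between 9.14 and 10.05 (median 9.40) in KO lungs at 120 ppm and between 8.38 and 9.34 (median 8.81) in KO lungs at 0 ppm. Its change was 0.64 (SE 0.13, adjusted p = 0.0102, limma), and 5 of 10 exposed lungs lay above all controls. Spon2, a secreted matrix protein with a part in innate immunity, lay between 5.57 and 7.06 (median 6.48) in KO lungs at 120 ppm and between 6.37 and 7.89 (median 7.53) in KO lungs at 0 ppm. Its change was -1.01 (SE 0.23), 2.02-fold lower, with an adjusted p of 0.0434 (limma).

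Spaar, which encodes a small lysosomal peptide that restrains mTORC1, lay between 5.68 and 6.23 (median 5.97) in KO lungs at 120 ppm and between 5.96 and 6.96 (median 6.60) in KO lungs at 0 ppm. Its change was -0.58 (SE 0.13, adjusted p = 0.0434, limma). Spon2 and Spaar overlapped widely, with 5 of 10 exposed lungs below all controls for each, and passed in 13 and 11 of the 29 alternatives.

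Pfkfb3, whose product makes the main activator of glycolysis, lay between 7.84 and 8.50 (median 8.23) in KO lungs at 120 ppm and between 7.42 and 8.02 (median 7.82) in KO lungs at 0 ppm, a change of 0.42 (SE 0.09, adjusted p = 0.042, limma). Rsad1, a putative haem-handling protein of mitochondria, lay between 6.57 and 7.03 (median 6.87) in KO lungs at 120 ppm and between 6.41 and 6.68 (median 6.46) in KO lungs at 0 ppm, a change of 0.37 (SE 0.07, adjusted p = 0.00192, limma). For both, 9 of 10 exposed lungs exceeded all controls on the brightest probe set. Another probe set of each gene showed a difference of -0.0073 (Pfkfb3) and -0.0071 (Rsad1), and these had mean values of 3.16 and 3.08, below every array median (4.42 or more), where a rise could hardly be seen. The rise of each gene thus rests on 1 probe set. Pfkfb3 passed in only 15 of the 29 alternative settings, with adjusted p-values up to 0.76 (limma), and Rsad1 in 28. Just beyond the threshold stood Hspb1 (-0.60), Mthfd1l (0.41) and Nupr1 (-0.29), each with an adjusted p of 0.0514 (limma).

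The 2 exposure times were then taken apart. At 4 weeks 4 genes passed (0.0234%), 2 higher (0.0117%) and 2 lower (0.0117%), namely Dbp (2.44, adjusted p = 0.00188), Tef (0.75, adjusted p = 0.0328), Npas2 (-1.72, adjusted p = 0.00087) and Arntl (-1.45, adjusted p = 0.0174). At 1 week 0 passed (0%, limma), with 881 genes at an unadjusted p under 0.05 and between 0 and 7 genes passing when single animals were left out (7 without control animal 1, 3 without control animal 2 and 1 without exposed animal 2). A fit of only the arrays compared called 2 genes at 1 week. The 1-week changes of the 4 genes were 1.65 for Dbp, 0.48 for Tef, -1.24 for Npas2 and -1.07 for Arntl.

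The difference between the times passed for 0 genes (0%, limma; 435 at an unadjusted p under 0.05, and 0 in every alternative). All 13 genes had the same sign at both times, and 11 had the larger change at 4 weeks. The 13 were picked by the average of these same changes, so a shared sign was largely set by that choice. For Dbp the 4-week change exceeded the 1-week change by 0.79, with a 95% interval of -0.42 to 2.00. For Npas2 the difference was -0.49 (-1.29 to 0.31). Cry1 ran the other way, with -0.64 at 1 week and -0.21 at 4 weeks, a difference of 0.43 (-0.01 to 0.86). At 4 weeks the count lay between 1 and 6 with single animals left out, and was 1 or 2 without control animals 1, 2 or 5 or exposed animals 3 or 5.

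**Figure D2:**
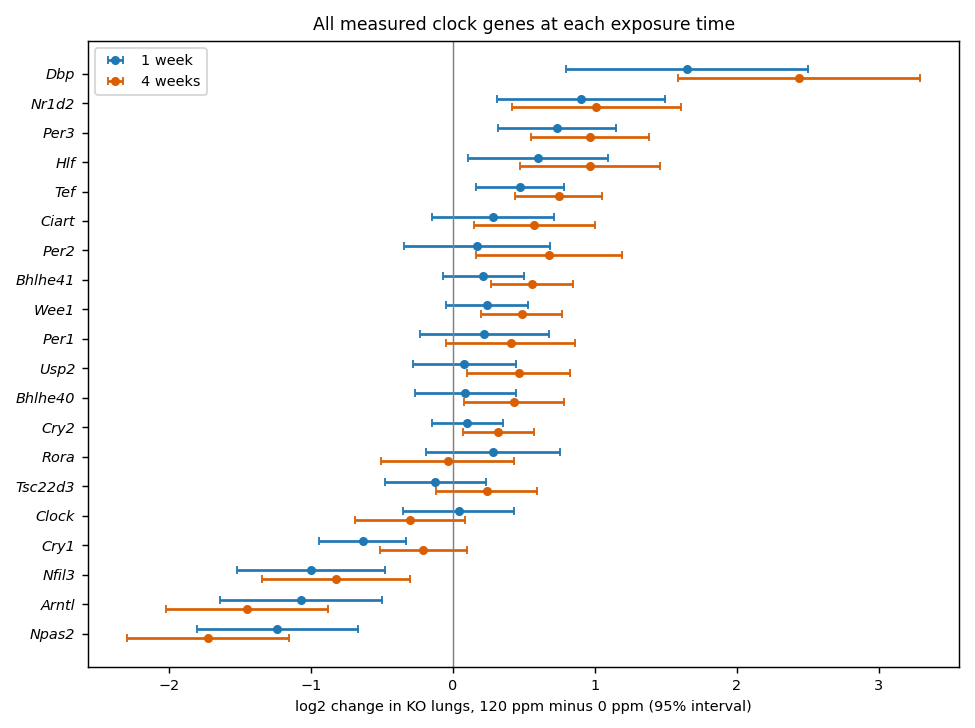
Log2 change between 120 and 0 ppm in KO lungs (x axis, with 95% intervals, n = 5 against 5 animals) for the 20 measured clock genes after 1 week (blue) and 4 weeks (orange) of exposure. Dbp, Nr1d2, Per3, Hlf and Tef lay above 0 and Nfil3, Arntl and Npas2 below 0 at both times. These genes had been picked by the average of both times, which favours a shared sign.

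The lower dose was compared next. Between 40 and 0 ppm in KO lungs 0 genes passed (0%, limma; 748 at an unadjusted p under 0.05). Median Npas2 was 5.99 at 0 ppm, 5.83 at 40 ppm and 4.54 at 120 ppm. Median Arntl was 7.54 at 0 ppm, 7.25 at 40 ppm and 6.43 at 120 ppm. Median Dbp was 6.14 at 0 ppm, 6.85 at 40 ppm and 8.10 at 120 ppm. All 3 genes had passed for their gap between 120 and 0 ppm in these arrays. A 40 ppm median inside that gap, as each had, therefore says little about a graded response. The 40 ppm changes, which share their controls with the 120 ppm changes, were -0.31 (95% interval -0.72 to 0.09) for Npas2, -0.29 (-0.69 to 0.12) for Arntl and 0.67 (0.07 to 1.27) for Dbp.

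Directly between 120 and 40 ppm, 1 gene passed (0.00585%), Npas2, with a difference of -1.17 (SE 0.20, adjusted p = 0.00258, limma). Arntl (-0.97, adjusted p = 0.0536) and Dbp (1.37, adjusted p = 0.071) did not pass. The count was 4 to 6 without exposed animal 3 at 1 week, control animal 1 at 4 weeks or exposed animal 4 at 4 weeks, 2 without exposed animal 1 at 4 weeks, and 0 in a fit of only the arrays compared. At 40 ppm 2 animals, picked after their values were seen, lay far apart. Animal 2 at 4 weeks had 4.58 for Npas2, 6.26 for Arntl and 7.92 for Dbp, inside the range of the 120 ppm lungs for all 3, whereas animal 1 at 1 week had 6.57, 7.63 and 4.94, inside the range of the 0 ppm lungs for Arntl and Dbp and above it for Npas2.

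The other strains were measured on separate arrays. In TG lungs, which lack Cyp2f2 as well, 47 genes passed between 120 and 0 ppm (0.275%), 9 higher (0.0526%) and 38 lower (0.222%). In WT lungs 988 passed (5.78%), 627 higher (3.67%) and 361 lower (2.11%). All 13 genes of the KO comparison had the same sign in both strains. Of the 13, 11 passed in TG lungs (84.6% of the KO genes and 23.4% of the TG genes) and 13 in WT lungs (100% of the KO genes and 1.32% of the WT genes). Pfkfb3 (0.28, adjusted p = 0.252) and Rsad1 (0.27, adjusted p = 0.0581) did not pass in TG lungs (limma).

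The sizes in the 3 strains stood as follows. Npas2 changed by -1.48 in KO, -1.69 in TG and -2.20 in WT lungs. Dbp changed by 2.04 in KO, 2.05 in TG and 3.38 in WT lungs. Arntl changed by -1.26 in KO, -1.35 in TG and -2.50 in WT lungs. In 11 of the 13 genes the change was smaller in KO than in WT lungs, and in 8 it was smaller in KO than in TG lungs.

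The difference between strains in the change was tested for every gene. Between KO and WT lungs it passed for 1 of the 13, Arntl, at 1.24 (SE 0.29, adjusted p = 0.0175, limma), which was also the only clock gene of 20 to pass. For Dbp the difference was -1.33 (95% interval -2.19 to -0.48, adjusted p = 0.137) and for Npas2 0.72 (0.15 to 1.29, adjusted p = 0.263). Between KO and TG lungs it passed for 1 gene in all (0.00585%), the dim and unnamed-function 4933424G05Rik, at 0.57 (adjusted p = 0.00616), and for 0 of the 13. That call was lost when dim genes were left out, with only the arrays compared and with array weights. The 95% KO minus TG interval was -0.86 to 0.85 for Dbp, -0.35 to 0.78 for Npas2 and -0.49 to 0.66 for Arntl. True differences anywhere within these intervals are compatible with these arrays.

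**Figure D3:**
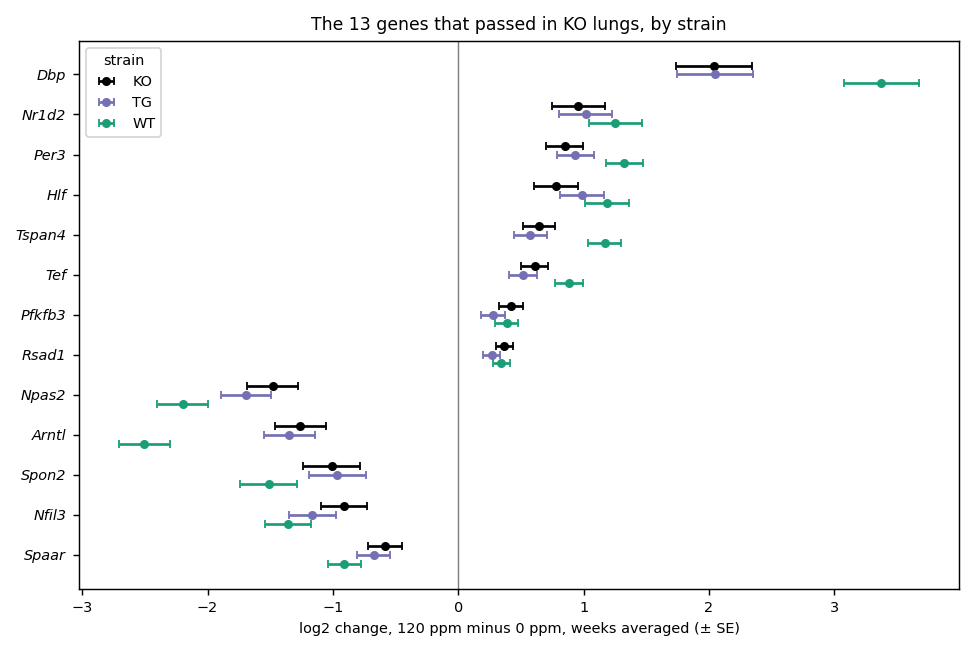
Log2 change between 120 and 0 ppm, weeks averaged, with its SE (x axis), for the 13 genes that passed in KO lungs, in KO (black), TG (violet) and WT (green) lungs, 10 arrays per dose and strain. All 13 had the same sign in the 3 strains, and Dbp, Npas2 and Arntl were largest in WT lungs.

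What WT lungs showed and KO lungs did not was tested as the KO minus WT difference, which passed for 91 genes (0.532%), 72 lower (0.421%) and 19 higher (0.111%) in KO. All 72 were higher at 120 than at 0 ppm in WT lungs and all 19 were lower there. In KO lungs 74 of the 91 had an unadjusted p of 0.05 or more (limma), and 1, Arntl, passed. Of all genes tested, 4.75% had an unadjusted p under 0.05 in KO lungs. The 91 were picked by a difference that contains the KO change, so these counts do not show an absence of response in KO lungs. Ces1g, a carboxylesterase, averaged 3.59 ± 0.18 in KO lungs at 120 ppm and 3.58 ± 0.26 in KO lungs at 0 ppm, and 7.72 ± 0.78 in WT lungs at 120 ppm and 5.22 ± 0.32 in WT lungs at 0 ppm (SD, n = 10 each). The difference in the change was -2.49 (adjusted p = 8.4e-15, limma). Unexposed KO lungs already lay below unexposed WT lungs for Ces1g, by -1.64 (adjusted p = 7.71e-14, limma).

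Pon1, a lipid-associated paraoxonase, averaged 10.8 ± 0.28 in KO lungs at 120 ppm and 10.8 ± 0.17 in KO lungs at 0 ppm, and 9.51 ± 0.80 in WT lungs at 120 ppm and 11.2 ± 0.20 in WT lungs at 0 ppm (SD, n = 10 each), a difference in the change of 1.71 (adjusted p = 3.11e-09, limma). Nqo1, a quinone reductase of the Nrf2 response, changed by 0.11 in KO and 0.94 in WT lungs, a difference of -0.83 (adjusted p = 0.00933, limma). Agr2, a protein-folding enzyme of mucus-making cells, changed by -0.44 in KO and 1.82 in WT lungs, and Ghrl, the ghrelin gene, by -0.16 in KO and 1.47 in WT lungs. Cdk1, the kinase that drives entry to mitosis, changed by -0.24 in KO (95% interval -0.62 to 0.14) and 0.97 in WT lungs, a difference of -1.21 (adjusted p = 0.00991, limma). The proliferation marker Mki67 changed by -0.07 in KO (-0.56 to 0.41) and 0.38 in WT lungs, and its difference did not pass (-0.46, adjusted p = 0.654, limma).

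Among the WT genes that passed and changed by over 1.5-fold, 124 were higher, with a median change of 0.75 in WT and 0.01 in KO lungs, and 6 of them passed in KO. The 43 that were lower had a median of -0.80 in WT and -0.25 in KO lungs, and 5 passed in KO. Both sets were picked by their size in WT lungs, so a larger median there was set in advance. Over all genes tested, 0.076% passed in KO lungs (limma). A list of 39 WT responders at 1 week, chosen from earlier results of these data, had 5 members that passed in KO lungs, namely Dbp, Arntl, Npas2, Nfil3 and Spon2. The KO minus WT count lay between 57 and 130 with single KO animals left out, and was 57 without exposed animal 1 at 4 weeks.

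Gene groups outside the clock were described by the same counts. Of 42 lists of processes and cell markers, which hold 742 distinct measured genes together with the WT responders, 40 had 0 members that passed, the clock had 8 and the hypoxia list had 1, Pfkfb3. With 0.076% of all genes passing, 0 is the usual count for a list of this size and says little about it. The mitosis list (30 genes) had a median change of -0.04 in KO and 0.47 in WT lungs, where 16 members rose. In WT lungs 3.67% of all genes rose at an adjusted p under 0.05 (limma). The S-phase list (28 genes) had a median of 0.05 in KO and 0.51 in WT lungs, where 23 rose. The Nrf2 and glutathione list (31 genes) had a median of -0.01 in KO and 0.10 in WT lungs, where 8 rose, and the KO median changed sign in 14 of 29 alternatives. In these 3 lists 0, 1 and 2 KO genes had an unadjusted p under 0.05, against 4.75% of all genes. The unfolded protein response list (24 genes), whose members handle misfolded proteins in the endoplasmic reticulum, had 23 negative changes with a median of -0.07, 4 of them at an unadjusted p under 0.05. Gclc, the catalytic subunit for glutathione synthesis, differed by -0.21 (95% interval -0.36 to -0.05, adjusted p = 0.757) and Ephx1, which hydrolyses styrene oxide, by 0.12 (-0.03 to 0.27) in KO lungs.

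The heat shock and cold-inducible list had the lowest median of the 42. Its 17 measured genes, mostly chaperones that refold proteins, had a median change of -0.38, with 16 negative, 9 of them at an unadjusted p under 0.05 (4.75% of all genes in either direction) and 0 at an adjusted p under 0.05 (limma; up to 3 in an alternative). Hspb1, a small heat shock protein, lay between 10.87 and 12.47 (median 11.49) in KO lungs at 120 ppm and between 11.54 and 12.76 (median 12.35) in KO lungs at 0 ppm, so the groups overlapped. Hspa1b, the inducible HSP70, differed by -0.82 (adjusted p = 0.958), Hsph1 by -0.64 (adjusted p = 0.538) and the co-chaperone Stip1 by -0.48 (adjusted p = 0.368), all by limma. The list's median was -0.37 in TG lungs, where 5 members fell, and -0.50 in WT lungs, where 6 fell. Among all genes, 0.222% fell in TG and 2.11% in WT lungs at an adjusted p under 0.05 (limma). Its weeks-averaged median in KO lungs lay between -0.43 and -0.27 over the alternatives. By time it was -0.53 at 1 week, with 8 genes at an unadjusted p under 0.05, and -0.18 at 4 weeks, with 1 such gene, and no member's difference between the times passed.

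The 21 lists of cell markers had 0 members that passed in KO lungs, with medians from -0.25 (mucous cells) to 0.09 (T and NK cells). By time some lists moved further. At 1 week the median was -0.41 for mucous cells (12 of 12 negative) and -0.34 for heart and skeletal muscle (17 of 18 negative), and at 4 weeks it was -0.10 and 0.16. The red cell list had a median of -0.03 at 1 week and 0.27 at 4 weeks, where 4 of its 9 genes were higher at an unadjusted p under 0.05 (2.45% of all genes in either direction), beside the 4 clock genes that passed at that time. Among them Slc4a1, the anion exchanger of red cells, differed by 0.75 and Alas2, which starts their haem synthesis, by 0.47 (adjusted p = 1 each, limma). The mean level of the 20 club cell markers lay between 9.32 and 10.49 in KO lungs at 120 ppm and between 9.41 and 10.67 in KO lungs at 0 ppm. That of the 12 mucous cell markers lay between 4.45 and 5.94 in KO lungs at 120 ppm and between 4.56 and 5.91 in KO lungs at 0 ppm. Clca1, a secreted mucous cell protein and the marker with the largest difference, lay between 2.69 and 8.08 in KO lungs at 120 ppm and between 3.05 and 8.36 in KO lungs at 0 ppm (change -1.47, adjusted p = 0.999, limma). The part of cell makeup in the clock gene changes was not tested.

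**Figure D4:**
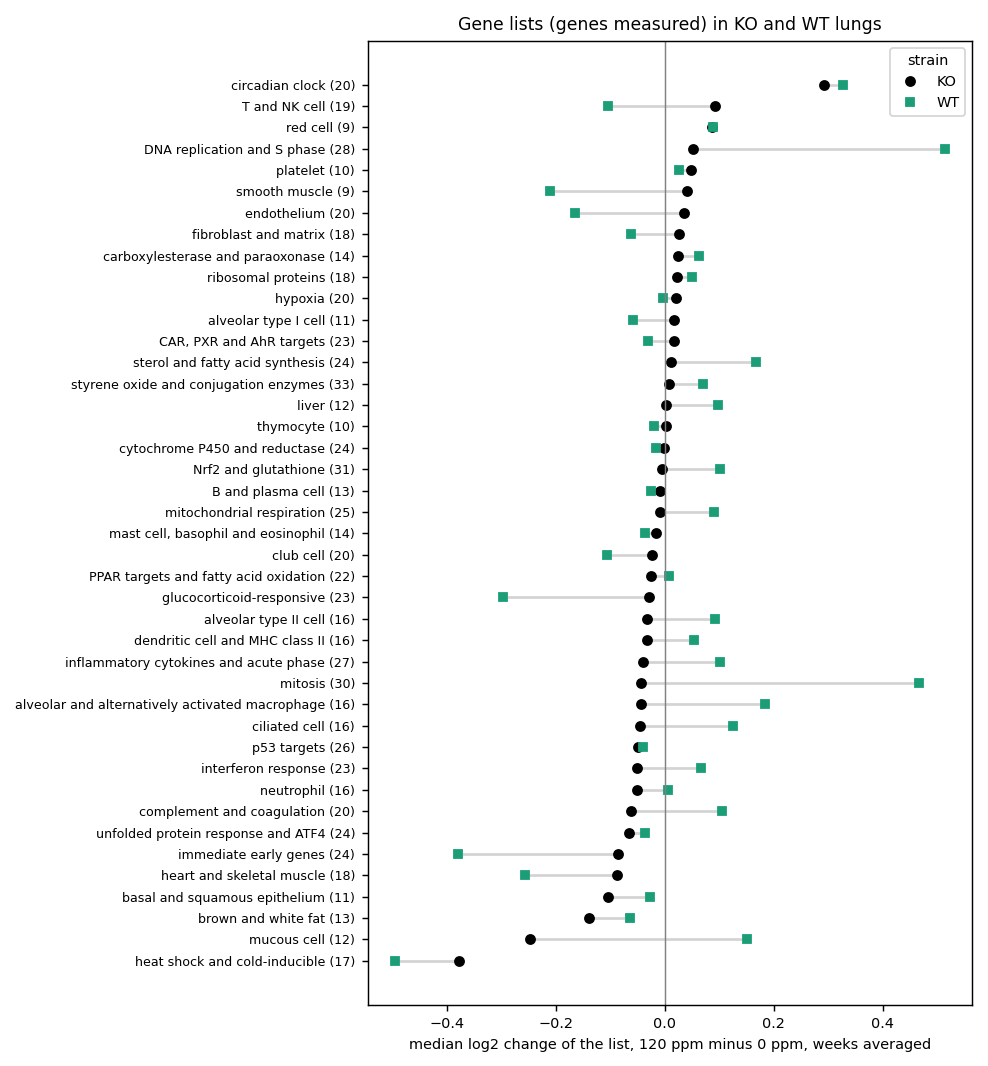
Median log2 change between 120 and 0 ppm, weeks averaged (x axis), of each of 42 gene lists (y axis, with the number of genes measured) in KO (black circles) and WT (green squares) lungs. The clock list had the highest median in KO lungs, 0.29, and the heat shock and cold-inducible list the lowest, -0.38. The mitosis and S-phase lists had medians of -0.04 and 0.05 in KO and 0.47 and 0.51 in WT lungs.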

How the data were processed

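The deposited table gives a log2 expression value for each probe set of Affymetrix HT MG-430 PM arrays hybridised with whole lung RNA. Per the submitters' processing notes, RMA and Partek were used, and no version is stated in the sources used here. Groups and replicate numbers came from the labels, which call the animals biological replicates. The table holds 45141 probe sets. Of these, 104 controls were left out, 28898 have 1 gene symbol, 551 several and 15588 no listed gene in the platform annotation, and only the first kind was named. Each gene took its probe set with the highest mean, giving 17097 genes, of which 16936 matched RefSeq (GRCm38.p6).

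One mean per group of strain, dose and week (18) was fitted to all 90 arrays with limma 3.58.1 in R 4.3.3 (72 residual degrees of freedom), so that strains and doses share 1 estimate of spread. Weeks were averaged with equal weight. P-values were adjusted by Benjamini-Hochberg over all genes and 0.05 was the threshold. Confidence intervals are 95% and cover 1 gene at a time. The fit was tested on simulated data with independent noise in each gene and array. Those data hold no effect shared by an array, so they say nothing about such effects here. The number of arrays limits the precision.

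Genes were named by a rule: up to 15 rises and 15 falls in the main comparison, 8 and 8 for KO minus WT, 5 and 5 elsewhere, up to 4 per list and a set of genes given anywhere. The members, comparisons and lists were chosen with earlier results of these data known. Alternatives were quantile normalization, dim genes left out (below the 40th percentile), the median over probe sets, robust empirical Bayes with an intensity trend, a fit of only the arrays compared, limma array weights, a block for the replicate number, 4 arrays of weight below 0.25 left out, poly-A controls as a covariate, and each KO animal at 0 or 120 ppm left out in turn. Same-numbered animals correlated between -0.32 and 0.47 over 10 pairs, 5 of them above 0.1. The main fit did not treat numbers as pairs, and the block for the replicate number was run as an alternative.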

Additional observations from a re-analysis of the deposited data

Results flagged for a closer look

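The results below drew attention because the 120 ppm change differed between strains by a direct test of that difference (limma, adjusted over all genes). The KO minus WT difference in the change was 2.05 for Asgr1, 1.71 for Pon1, 1.24 for Arntl, 0.91 for Mfsd4a, 0.74 for Dusp1, 0.72 for Cldn8, 0.65 for Gata2 and 0.61 for 5830408C22Rik. It was -3.14 for Gp2, -2.49 for Ces1g, -2.26 for Agr2, -2.00 for Retnla, -1.63 for Ghrl, -1.61 for Cd177, -1.57 for Wfdc3 and -1.39 for Serpind1. The KO minus TG difference was 0.57 for 4933424G05Rik. Asgr1, a hepatic lectin subunit, changed by 0.40 in KO and -1.65 in WT lungs. Gp2, a membrane protein of secretory and antigen-sampling epithelium, changed by -0.94 in KO and 2.20 in WT lungs, and by -2.12 at 1 week and 0.23 at 4 weeks in KO lungs, a difference between weeks that did not pass (adjusted p = 0.997). Dusp1 was lost with array weights, Gata2 with the median over probe sets, and Dusp1, Cldn8, Gata2, Gp2, Ghrl and Cd177 were lost in a fit of only the arrays compared. With single animals left out, Dusp1 passed in 7 of 20 fits, Gata2 in 11, Cd177 in 12 and Cldn8 in 15. The other KO minus WT genes named here passed in all 20. The 13 genes that passed in KO lungs were checked for 1 animal far from the others in each KO group of 5 at 120 or 0 ppm. Of these 52 checks of a gene in a group, 0 met the criterion. Among the genes flagged above, only Arntl was checked in this way.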

How the results depend on the processing

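The main count of 13 genes was 17 with quantile normalization (8 higher and 9 lower, against 8 and 5), 16 without dim genes, 15 with an intensity trend and 18 without the 4 arrays of low weight. Array weights raised it to 35 and the poly-A covariate to 20, and it lay between 6 and 14 with single animals left out. With only the arrays compared it was 10 (5 higher and 5 lower), 9 of them among the 13, and with the median over probe sets 12 (5 higher and 7 lower), also 9 among the 13. Over these settings, other than single animals left out, 7 to 10 of the calls were clock genes. With the replicate block it was 20 (10 higher and 10 lower) for 120 against 0 ppm, 6 at 4 weeks, 6 for 120 against 40 ppm and 127 for KO minus WT, and the block ended no call among the 13. Single animals left out gave 0 to 7 genes at 1 week, 1 to 6 at 4 weeks, 0 to 0 between weeks, 57 to 130 for KO minus WT, 1 to 1 for KO minus TG and 1 to 6 for 120 against 40 ppm. Only the arrays compared gave 2 at 1 week, 2 at 4 weeks, 44 for KO minus WT, 0 for KO minus TG and 0 for 120 against 40 ppm. Array weights gave 15 at 4 weeks, 420 for KO minus WT, 0 for KO minus TG and 20 for 120 against 40 ppm. Without dim genes there were 60 for KO minus WT, 0 for KO minus TG and 5 for 120 against 40 ppm. Quantile normalization gave 142 and 9, the poly-A covariate 213 and 4, and leaving out the arrays of low weight 376 and 4, for KO minus WT and for 120 against 40 ppm, where the median over probe sets gave 97 and 4. Rsad1 turned to -0.0071 with the median over probe sets, where its other probe sets are dim; 12 of the 13 genes kept their sign throughout. The Cyp2f2 difference lay between -1.18 and -1.11 with single animals left out. Causes were not tested unless stated. Signal near the dim end limits Ces1g and 4933424G05Rik, whose KO means lie below every array median.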

Other observations

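Fitted over all probe sets, 4 probe sets with no listed gene also passed between 120 and 0 ppm in KO lungs, with changes of 2.02, 1.06, 0.93 and -1.22 (adjusted p = 8.54e-05, 0.000809, 0.0254 and 0.000417, limma). A second probe set of Hspb1 passed in that fit, at -0.72 (adjusted p = 0.0124), beside the -0.60 of the brighter one. Bhlhe41 and Wee1, clock-controlled genes that did not pass, did so with array weights, at 0.40 and 0.41.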
